A study of Mus musculus with 4 samples.

Results

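The genes described here are those of the integrin subunits and of the laminin chains. They were chosen by gene symbol alone (Itga with a number or v, Itgb with a number, and Lama, Lamb or Lamc with a number), which gave 32 of the 23746 gene rows: 13 integrin alpha, 8 integrin beta and 11 laminin genes. The alpha subunits of leukocyte integrins that carry a letter other than v in their name are not among them and are given separately below. PolyA RNA was measured in 4 primary mammary tumors of female mice, with 2 tumors per genotype. Tumors 26043 and 26044 came from females of the genotype WapCre;Rank;Brca1;p53, called triple-mutant, and tumors 26048 and 26050 from WapCre;Brca1;p53 females, called double-mutant. Both genotypes carry the WapCreC transgene, which is active in luminal and basal cells of the mammary epithelium, with floxed Brca1 and floxed p53 (Trp53). They differ in the floxed allele of Rank (Tnfrsf11a), the receptor of RANKL. The double-mutant females are thus controls that carry the same Cre, Brca1 and p53 alleles. The study describes the females of both genotypes as littermates, but which tumors share a litter is not given. Age and grade of the sequenced tumors are not given in the sources used here. In the study, high-grade tumors arose only in double-mutant females, and triple-mutant tumors were of intermediate grade. Staining for CK5 (Krt5) and p63 (Trp63) was reduced in the high-grade tumors. The part of grade in the differences between genotypes was not tested. Whether each tumor came from a different female is also not stated. The p values then measure only the spread between these tumors. Bulk tumor RNA also holds transcripts of stromal, vascular and immune cells.

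Integrins are cell surface receptors made of an alpha and a beta subunit, which link the extracellular matrix to the cytoskeleton. Laminins are trimers of an alpha, a beta and a gamma chain and form the sheet of the basement membrane on which epithelial cells rest. In the mammary gland, basal cells contact this sheet directly, and the Itga6 product (CD49f) is a common surface marker for sorting them. The Itga6 and Itgb4 products together form the core of hemidesmosomes, which anchor epithelial cells to a laminin that holds the Lama3 and Lamb3 chains.

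All values are FPKM (fragments per kilobase of transcript, scaled to the mapped fragments of the library) as the authors deposited them. FPKM are per length, but each gene's FPKM lay at 0.708 (Itga8) to 1.70 (Lama5) times the midpoint of its own interval from Cufflinks, on average over the tumors. Levels and ratios of different genes within a tumor therefore depend on the estimate, and ratios are given on both. The number of reads behind them is unknown. For members of at least 1 FPKM, the median half-width of the interval that Cufflinks gives was 5.23% to 5.49% of its midpoint per tumor, which leaves out the spread between tumors. The FPKM itself lay outside that interval for 14 to 18 of the 20 to 26 such members per tumor, so the interval is not the error of the FPKM. Genotypes were compared with limma on log2(FPKM + 1) over 12752 genes, those that reached 1 FPKM in 2 or more tumors. This scale understates differences of genes with low FPKM. An exact permutation test of a value in 2 tumors against 2 cannot go below p = 0.333, so none is given.

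As a check of the labels, Rank was at 2.07 and 0.96 FPKM in the triple-mutant and at 10.6 and 11.9 FPKM in the double-mutant tumors. Brca1 was at 3.26 and 3.28 against 3.84 and 5.69 FPKM. Trp53 was at 15.7 and 87.8 against 150 and 103 FPKM, so both genes were measured in every tumor. The FPKM of a whole gene does not show whether the floxed exons were deleted. The study reported by qRT-PCR, and for RANK also by staining, that the targeted genes were effectively deleted in tumors of this model. Whether the sequenced tumors were among those is not given in the sources used here. Epithelial markers were present throughout, with Epcam between 25.7 FPKM (tumor 26044) and 516 FPKM (tumor 26048). Triple-mutant tumor 26044 stood apart in its luminal markers: the summed FPKM of Krt8, Krt18, Krt19, Epcam and Cdh1 was 408 there and 1874 to 2803 in the other tumors. The summed FPKM of the myoepithelial genes Acta2, Myh11, Cnn1, Tagln and Mylk was 1251 in that tumor and 71.7 to 109 in the others. Adipocyte markers summed to 1420 FPKM in double-mutant tumor 26048. In tumor 26044 they summed to 261 FPKM, nearly all from Fabp4, with Adipoq, Plin1 and Retn listed at 0. The sum of skeletal muscle markers was 33.4 FPKM in double-mutant tumor 26050, against 2.05 to 2.91 FPKM in the others. In bulk samples, fewer cells of a type and less RNA per cell cannot be told apart.

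Of the 32 genes, 29 reached 1 FPKM in at least 1 tumor and 26 passed the filter. The integrin genes Itga4, Itga10 and Itga11 stayed between 0.223 and 0.856 FPKM in every tumor. Itgb7, Lama2 and Lamc3 reached 1 FPKM in 1 tumor each and were also not tested. No member passed the adjusted threshold of 0.05 in limma (0 of 26 tested), and over all genes tested the share called was 0.0%. With an unadjusted p under 0.05, 5 members were higher in triple-mutant tumors and 1 in double-mutant tumors, where the shares over all genes were 5.91% and 3.91%. These 1252 genes in all (9.82%) are a description and not calls. In 7 members both triple-mutant tumors lay above both double-mutant tumors, and in 7 others they lay below. The shares of all genes tested that were separated in this way were 21.3% and 22.9%, against 26.9% of the members in each direction. In either direction 14 of 26 members were separated, beside 44.3% of all genes, and 7 of them also differed by at least 1 log2 unit, beside 12.0% of all genes. The directions differed between the kinds of gene, which was not tested and for laminins was in part fixed by the filter. Among the 9 laminin genes tested, 5 were higher in triple-mutant tumors and 1 in double-mutant tumors. Of these 5, the filter fixed 2 (Lama1 and Lama3), and the median log2 difference of 0.73 includes both. Of the 17 integrin genes tested, 2 were higher in triple-mutant tumors (Itga3 and Itgb4) and 6 in double-mutant tumors. The median log2 difference was 0.16 for alpha and -0.44 for beta subunits, beside -0.02 over all genes. Without tumor 26044, which stood apart, 5 of the 23 members then tested had an unadjusted p under 0.05, beside 8.33% of all genes, and 10 were separated in each direction, beside 39.3% of all genes toward triple-mutant tumors and 32.4% toward double-mutant tumors. Without tumor 26050, 2 of 26 members had an unadjusted p under 0.05, beside 3.80% of all genes. Lama1 and Lama3 passed the filter only through the triple-mutant tumors and so had to be separated. They are among the 7 members separated toward triple-mutant tumors and among the 5 with an unadjusted p under 0.05. They are also among the 7 separated members that differed by at least 1 log2 unit. These counts hold both genes, and the p values of Lama1 and Lama3 are no support. Over all genes tested, 416 passed through 1 genotype only.

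**Figure D1:**
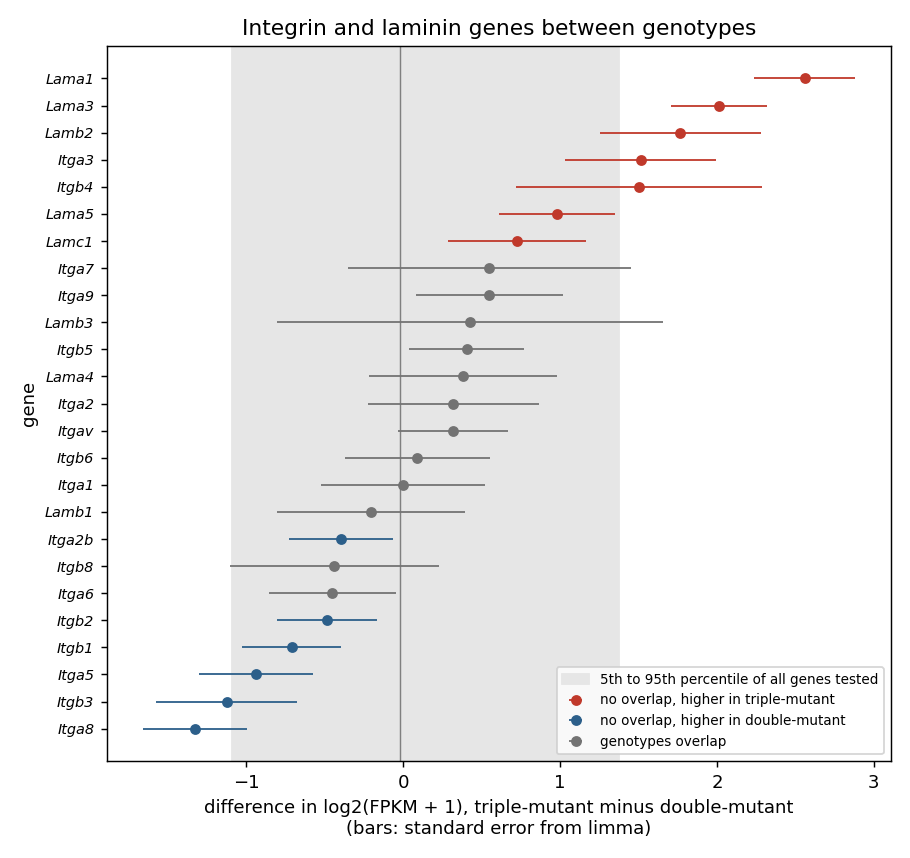
Difference in log2(FPKM + 1), triple-mutant minus double-mutant, for 25 tested genes, with the standard error from limma as bars and 2 tumors per genotype. Red and blue points mark genes whose genotypes do not overlap, grey points those that overlap, and the shaded band spans the 5th to 95th percentile of all genes tested, -1.09 to 1.38. Lama1 (2.56), Lama3 (2.01), Lamb2 (1.77), Itga3 (1.51) and Itgb4 (1.503) lie above the band, and Itgb3 (-1.13) and Itga8 (-1.33) below it. The filter fixed the separation of Lama1 and Lama3. Without tumor 26050 the difference was 1.14 for Lamb2, 0.99 for Itga3 and -1.08 for Itga8. It was 0.40 for Itgb4 without tumor 26043 and -0.62 for Itgb3 without tumor 26044.

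Of the 14 tested members whose genotypes did not overlap, 7 have a promoter in the RefSeq table. The stretch of 30 bases just before the start site is shown for 3 genes higher in triple-mutant tumors (Lama5, Lamb2, Itga3) and 3 higher in double-mutant tumors (Itga8, Itga5, Itgb1), so that both directions can be compared. The sequences are from that table (GRCm38.p6), 5′ to 3′ on the strand of the gene, with a GC box (GGGCGG on either strand) in capitals.
Lama5: gggccagcgggaccggCCGCCCcaaactag
Lamb2: tccgtgttttacttccttcccttgctttcc
Itga3: gtggggaggcggggcgcgctggggaggatc
Itga8: gggtcgagcgcgggatccgctgctgcaagc
Itga5: gagaggagggcgaagaacccaagcCCGCCC
Itgb1: aggcgcggctgacgcggcgcggaggaatgc
They lie at chr2:180225860-180225889 (minus strand), chr9:108479832-108479861 (plus strand) and chr11:95076715-95076744 (minus strand) for Lama5, Lamb2 and Itga3. For Itga8, Itga5 and Itgb1 they lie at chr2:12301945-12301974 (minus strand), chr15:103366792-103366821 (minus strand) and chr8:128685624-128685653 (plus strand). Within 250 bases before the start, Lama5 held 4 GC boxes, Itga3 3, Itga5 2 and Itgb1 1, and Lamb2 and Itga8 held 0. A GC box was present in 32.7% of all 32851 promoters of the table and in 7 of the 21 members that matched it. A TATA box (TATAAA, both strands) was found in 12.4% of all promoters and in 0 of these 21. The GC content of the 250 bases was 72.4% for Lama5 and 43.6% for Lamb2, both higher in triple-mutant tumors, beside a median of 52.4% over the table. These matches are a description of the letters in this window.

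The laminin alpha chains carry the cell-binding domains and set most of the receptor preference of a trimer. Lama1, the alpha chain of embryonic and some epithelial basement membranes, was at 5.85 and 7.31 FPKM in the triple-mutant tumors and at 0.168 and 0.402 FPKM in the double-mutant tumors. Both triple-mutant tumors were thus far above both controls, 6.58 ± 1.03 against 0.285 ± 0.165 FPKM (SD, n = 2 each), a ratio of 23.0 between the means. The log2 difference was 2.56 (SE 0.32), a description, since the filter fixed that the genotypes differ. With a pseudocount of 0.1 the log2 difference of Lama1 was 4.18. Lama1 lies on chromosome 17 from 67697265 to 67822645 (mm10).

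Lama3, the alpha chain of the hemidesmosome ligand, was at 4.03 and 4.44 FPKM in the triple-mutant and at 0.422 and 0.1803 FPKM in the double-mutant tumors. The triple-mutant values were close to each other (4.23 ± 0.29 FPKM, SD, n = 2) and 14.1 times the double-mutant mean of 0.301 ± 0.171 FPKM (SD, n = 2). The log2 difference was 2.01 (SE 0.31), likewise a description, and 3.50 with a pseudocount of 0.1. Both double-mutant tumors lay under 1 FPKM for Lama1 and Lama3, and the intervals that Cufflinks gives there reached at most 0.498 FPKM for Lama1 and 0.501 FPKM for Lama3.

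Lama5, the main alpha chain of adult epithelial basement membranes, was at 25.3 and 30.5 FPKM in triple-mutant and at 17.7 and 10.3 FPKM in double-mutant tumors. The genotypes did not overlap, with a log2 difference of 0.98 (SE 0.37, adjusted p = 0.51 in limma with Benjamini-Hochberg adjustment) and 0.62 without tumor 26050. Lama4, a chain of vascular and mesenchymal basement membranes, was at 18.8 and 57.3 against 21.1 and 29.8 FPKM. Its highest and its lowest value both came from triple-mutant tumors, so the genotypes overlapped (log2 difference 0.38, SE 0.60, adjusted p = 0.84 in limma). The endothelial markers Pecam1, Cdh5, Kdr, Tek, Tie1, Emcn, Cldn5 and Vwf summed to 129 FPKM in tumor 26044 and to 31.4 to 59.4 FPKM in the others. Tumor 26044 was thus highest for Lama4 and for these markers, and their part in the Lama4 level was not tested. Lama2, the chain of muscle and nerve basement membranes, was low, at 0.506 and 0.470 against 1.15 and 0.463 FPKM.

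**Figure D2:**
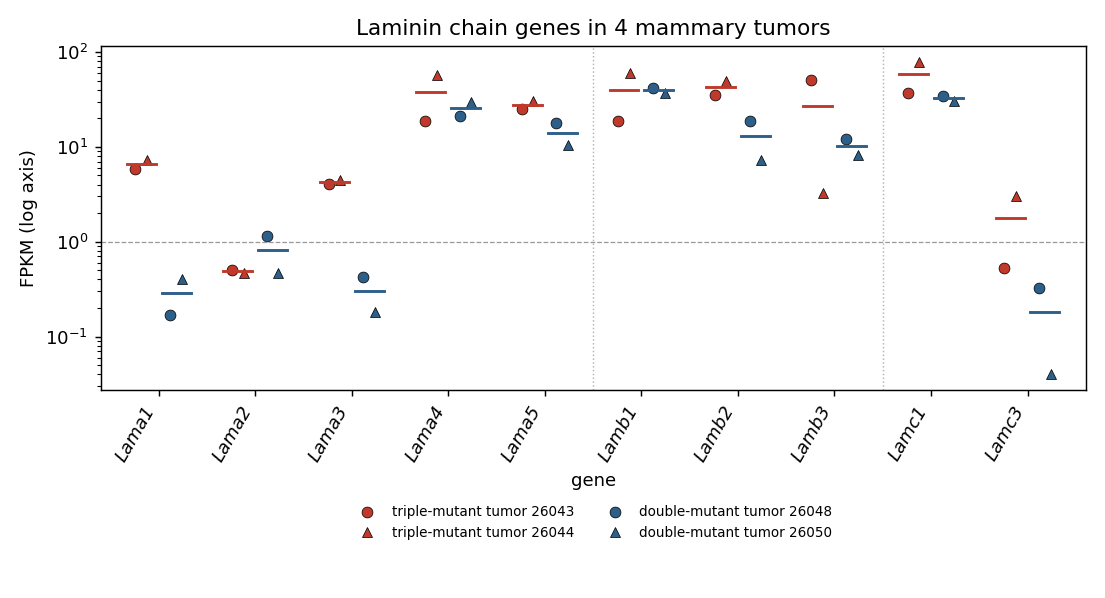
FPKM on a log axis of 10 laminin chain genes in each of the 4 tumors, triple-mutant in red and double-mutant in blue, with 1 marker per tumor and short lines at the mean of each genotype; the dashed line marks 1 FPKM and dotted lines part the alpha, beta and gamma chains. Lama1 and Lama3 lie above 4 FPKM in both triple-mutant tumors and under 1 FPKM in both double-mutant tumors, and Lamb3 ranges from 3.27 to 50.3 FPKM within the triple-mutant pair.

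Lamb2 had the largest difference of the beta chains. It encodes the chain found in mature, vascular and neuromuscular basement membranes, and lies on chromosome 9 from 108479862 to 108490530. Its level was 35.6 and 49.8 FPKM in triple-mutant tumors and 18.6 and 7.22 FPKM in double-mutant tumors. The means were 42.7 ± 10.04 and 12.9 ± 8.0 FPKM (SD, n = 2 each), and the log2 difference was 1.77 (SE 0.52, unadjusted p = 0.022, adjusted p = 0.47 in limma), or 1.14 without tumor 26050. Lamb1, the widely expressed beta chain, was at 18.9 and 60.5 against 41.7 and 37.2 FPKM. The triple-mutant tumors lay on either side of the controls, and the log2 difference was -0.21 (SE 0.60). Lamb3, the beta chain of the hemidesmosome ligand, was at 50.3 and 3.27 FPKM in triple-mutant and at 12.1 and 8.27 FPKM in double-mutant tumors. The spread within the triple-mutant pair was the widest of any tested member on the log2 scale by its standard error of 1.23, around a difference of 0.42. Without tumor 26043 the log2 difference of Lamb3 was -1.37, and without tumor 26044 it was 2.22.

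Lamc1, the gamma chain of most laminins, was at 37.3 and 79.3 FPKM in triple-mutant and at 34.7 and 30.4 FPKM in double-mutant tumors. Tumor 26043 was only slightly above the controls, and the log2 difference was 0.73 (SE 0.44, adjusted p = 0.62 in limma). It was 0.19 without tumor 26044 and 1.26 without tumor 26043. Lamc1 lies on chromosome 1 from 153218922 to 153332786. Lamc3 was at 0.525 and 3.05 against 0.325 and 0.040 FPKM and was not tested.

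The ratio of Lama3 to Lamb3 FPKM, both chains of the hemidesmosome ligand, was 0.080 and 1.36 in triple-mutant tumors and 0.035 and 0.022 in double-mutant tumors. On interval midpoints it was 0.104 and 1.76 against 0.042 and 0.027, with the same order of tumors. The ratio of Lamb2 to Lamb1 was 1.89 and 0.824 against 0.446 and 0.194 on FPKM, and 1.18 and 0.493 against 0.309 and 0.134 on midpoints. In both pairs the triple-mutant tumors lay above the controls on either estimate, and the filter fixed the separation of Lama3 itself. Other pairs differed from this. Lama5 to Lama4 overlapped between genotypes on either estimate, and Itga8 to Itgb1 was higher in double-mutant tumors on either. Itga5 to Itgb1 overlapped on FPKM and was higher in double-mutant tumors on midpoints.

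Seen as shares of the summed FPKM of each class, Lama1 and Lama3 made up 10.7% and 7.40% of alpha chain FPKM in tumor 26043 and 7.31% and 4.44% in tumor 26044. In tumor 26048 they made up 0.415% and 1.04%, and in tumor 26050 0.976% and 0.437%. Most alpha chain FPKM came from Lama4 and Lama5 in every tumor, with Lama4 at 34.5% and 57.3% in triple-mutant and 52.1% and 72.4% in double-mutant tumors. Lamb2 held 38.9% ± 7.0 of beta chain FPKM in the triple-mutant pair and 19.7% ± 8.5 in the double-mutant pair (SD, n = 2 each). Lama5 and Lamb2 shares depended on the estimate. With the midpoint of the interval that Cufflinks gives in place of its FPKM, the triple-mutant mean of Lama5 was 23.98% in place of 38.5%. The double-mutant mean of Lama5 was then 23.7% in place of 34.4%. For Lamb2 the triple-mutant mean was 29.7% in place of 38.9%, and the double-mutant mean 14.9% in place of 19.7%.

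**Figure D3:**
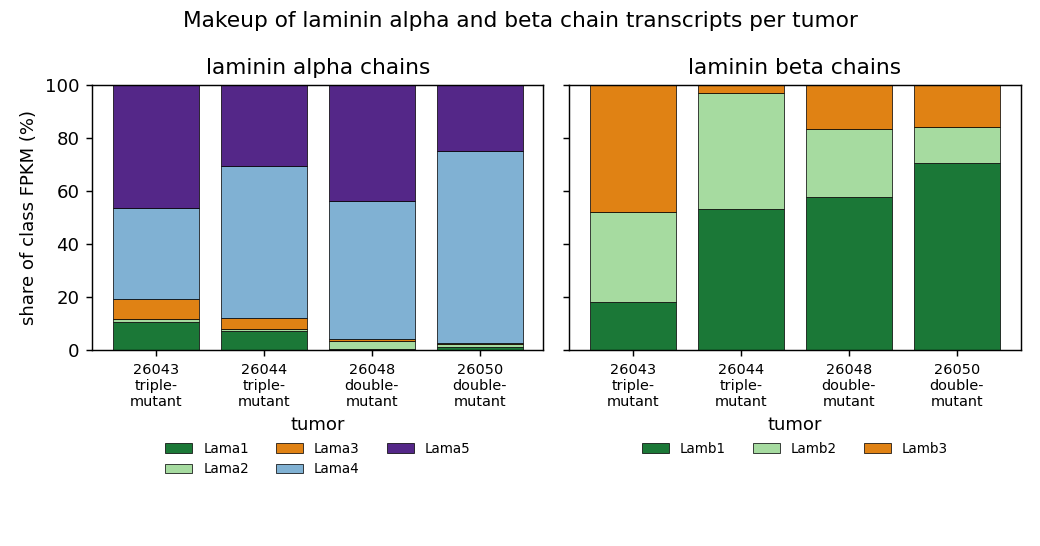
Share of the summed FPKM of laminin alpha and beta chains (percent, y axis) that each chain held in each tumor (x axis, with its genotype), drawn as stacked bars. Lama1 and Lama3 are visible at the foot of the alpha bars of both triple-mutant tumors and make up under 2% each in the double-mutant tumors, and Lamb3 holds 48.0% of beta chain FPKM in tumor 26043 and 2.88% in tumor 26044.

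Among the integrin alpha subunits, Itga3, Itga6 and Itga7 form the laminin-binding group. Itga3, which pairs with Itgb1, was at 32.5 and 51.2 FPKM in triple-mutant and at 20.0 and 9.22 FPKM in double-mutant tumors. The genotypes did not overlap (41.9 ± 13.2 against 14.6 ± 7.6 FPKM, SD, n = 2 each), and the log2 difference was 1.51 (SE 0.48, unadjusted p = 0.029, adjusted p = 0.48 in limma), or 0.99 without tumor 26050. Itga3 lies on chromosome 11 from 95044482 to 95076714. Itga6, which pairs with Itgb1 or Itgb4, was at 30.8 and 53.4 against 68.1 and 45.8 FPKM, an overlap with a log2 difference of -0.45 (SE 0.40). The ratio of Itga3 to Itga6 FPKM was 1.06 and 0.960 against 0.294 and 0.201 in the double-mutant tumors. On interval midpoints it was 0.621 and 0.501 against 0.195 and 0.134, so the genotypes were separated on both estimates and the level of the ratio was not the same. Itga7, known from muscle, was at 0.840 and 7.07 against 3.34 and 0.599 FPKM, with no order by genotype. The Itga7 span overlaps Mettl7b, so its value is uncertain if strand was not used in the counting.

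Of the subunits that bind the RGD motif, Itga8 and Itga5 were higher in double-mutant tumors. Itga8, whose product pairs with Itgb1 and binds nephronectin and other RGD ligands, was at 5.18 and 5.29 FPKM in triple-mutant and at 12.2 and 17.6 FPKM in double-mutant tumors. The triple-mutant pair was tight (5.24 ± 0.07 FPKM, SD, n = 2) and the double-mutant mean of 14.9 ± 3.8 FPKM (SD, n = 2) was 2.85 times as high. The log2 difference was -1.33 (SE 0.33, unadjusted p = 0.012, adjusted p = 0.41 in limma). Itga5, the alpha subunit of the main fibronectin receptor, was at 6.51 and 10.97 against 18.3 and 16.1 FPKM, without overlap and with a log2 difference of -0.94 (SE 0.36, adjusted p = 0.51 in limma). Without tumor 26043 it was -0.60. Itgav, which pairs with several beta subunits, was at 12.1 and 17.6 against 13.3 and 9.98 FPKM, and the genotypes overlapped. Itga2b, the platelet subunit, was near the filter at 1.04 and 0.684 against 1.84 and 1.10 FPKM, with a log2 difference of -0.40 (SE 0.33), or -0.18 without tumor 26048. The platelet markers beside it, Pf4, Ppbp, Gp9 and Gp1bb with Itga2b itself, summed to 8.42 and 16.7 against 16.4 and 21.4 FPKM. Defining markers Ppbp and Gp9 were at 0.32 FPKM or under, and their part in the Itga2b level was not tested.

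The collagen-binding subunits Itga1 and Itga2 lie 26.0 kb apart on chromosome 13. Itga1 was at 1.20 and 2.18 against 3.004 and 0.751 FPKM, and Itga2, found on epithelium and platelets, at 3.07 and 0.583 against 1.29 and 0.805 FPKM. Both overlapped between genotypes, and the span of Itga1 also holds Pelo on the same strand. Itga9, whose product binds tenascin and other ligands, was at 9.28 and 13.2 against 10.7 and 4.81 FPKM, with overlap.

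Itgb4, the hemidesmosome beta subunit, pairs only with Itga6. It was at 168 and 35.4 FPKM in triple-mutant tumors and at 29.7 and 23.98 FPKM in double-mutant tumors. Both triple-mutant tumors were above the controls, but tumor 26044 lay much closer to them than to tumor 26043. The log2 difference was 1.503 (SE 0.78, adjusted p = 0.58 in limma), 0.40 without tumor 26043 and 2.61 without tumor 26044. The ratio of Itgb4 to Itga6 FPKM was 5.46 in tumor 26043, 0.663 in tumor 26044, and 0.435 and 0.523 in the double-mutant tumors. On interval midpoints it was 3.14, 0.336, 0.285 and 0.327, so that tumor 26044 was about level with tumor 26050. Itgb4 made up 49.97% of all integrin beta FPKM in tumor 26043 and 11.7% to 21.7% in the other tumors. The gene lies on chromosome 11 from 115974725 to 116008411.

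Itgb1, the partner of most alpha subunits, was the most abundant beta subunit in 3 of the 4 tumors. Its level was 80.8 and 60.6 FPKM in triple-mutant and 134 and 99.3 FPKM in double-mutant tumors. The genotypes did not overlap, with a log2 difference of -0.71 (SE 0.32, adjusted p = 0.54 in limma). Its share of beta subunit FPKM was 24.04% and 37.1% against 52.8% and 54.2%. Itgb3, which pairs with Itgav and Itga2b, was at 9.41 and 4.13 against 16.3 and 13.8 FPKM, a log2 difference of -1.13 (SE 0.45, adjusted p = 0.52 in limma). It was -0.62 without tumor 26044 and -1.64 without tumor 26043. Itgb5, also a partner of Itgav, was at 64.8 and 57.1 against 60.4 and 34.5 FPKM and overlapped. Itgb6 and Itgb8, further partners of Itgav that bind latent TGF-beta, ran from 0.665 to 2.31 FPKM and from 0.337 to 3.43 FPKM, each with its highest and its lowest value in triple-mutant tumors. The lowest value of Itgb7, a leukocyte subunit, was 0.269 FPKM and its highest 1.14 FPKM.

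**Figure D4:**
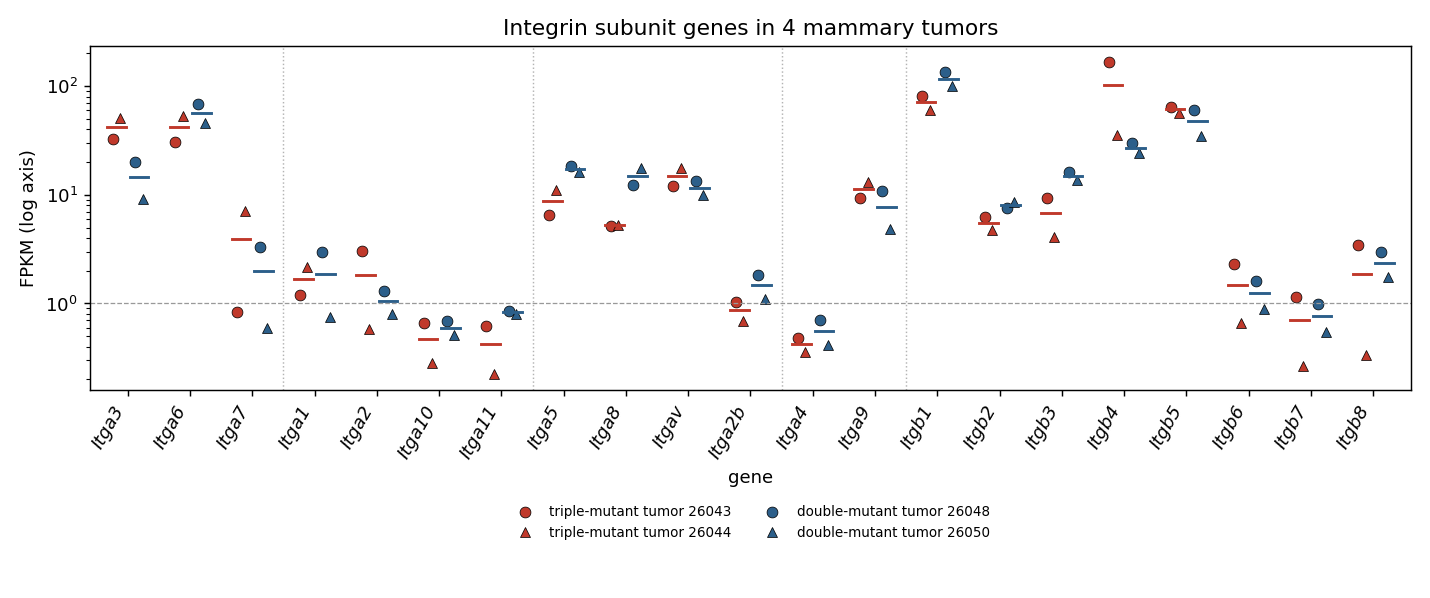
FPKM on a log axis of the 21 integrin genes in each tumor, triple-mutant in red and double-mutant in blue, with 1 marker per tumor and short lines at the mean of each genotype; the dashed line marks 1 FPKM and dotted lines part laminin-binding, collagen-binding, RGD-binding and other alpha subunits and the beta subunits. The red points of Itga5, Itga8, Itgb1 and Itgb3 all lie below the blue ones, those of Itga3 lie above, and Itgb4 stands at 168 FPKM in tumor 26043.

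Itgb2 is the beta subunit of leukocyte integrins. It was at 6.25 and 4.79 FPKM in triple-mutant and at 7.63 and 8.58 FPKM in double-mutant tumors, a log2 difference of -0.49 (SE 0.32, adjusted p = 0.64 in limma). Leukocyte markers had the same direction. Of 10 markers 7 were tested, of which 4 were separated toward double-mutant tumors and 0 toward triple-mutant tumors (all genes: 22.9% and 21.3%), and their summed FPKM was 268 and 214 against 586 and 425. None of the 10 was listed at 0 in every tumor, and the lymphocyte markers Cd3e, Cd3g and Cd79a stayed under 1 FPKM. The part of leukocyte content in the Itgb2 level was not tested. Among the alpha subunits that pair with Itgb2, Itgam of macrophages and neutrophils was at 1.29 and 0.793 against 4.16 and 3.90 FPKM (log2 difference -1.31, SE 0.32, adjusted p = 0.40 in limma). Itgal and Itgax overlapped between genotypes, and Itgad stayed under 1 FPKM. Itgae, which is not a partner of Itgb2, also stayed under 1 FPKM.

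Fibroblast and basal markers also differed between the tumors. The summed FPKM of Pdgfra, Pdgfrb, Dcn, Lum, Col1a1, Col1a2, Col3a1 and Fap was 206 and 123 in triple-mutant and 901 and 433 in double-mutant tumors, where Itga5, Itga8 and Itgb1 were also higher. Of the 7 tested fibroblast markers, 4 were separated toward double-mutant tumors and 1 (Pdgfra) toward triple-mutant tumors. These are 57.1% and 14.3%, beside 22.9% and 21.3% of all genes. The basal epithelial markers Krt5, Krt14, Krt17 and Trp63 summed to 1671 and 359 FPKM against 7.71 and 14.5 FPKM. All 4 were separated toward triple-mutant tumors, beside 21.3% of all genes. Lama1, Lama3, Lama5, Lamb2, Lamc1, Itga3 and Itgb4 shared that direction, which the filter fixed for Lama1 and Lama3. In 7 other members, Itgb1 among them, both triple-mutant tumors lay lower. Itga6, the sorting marker of basal cells, overlapped between genotypes (log2 difference -0.45). The part of cell content or of tumor grade in these levels was not tested.

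The genes that work beside laminins and integrins were taken from lists drawn up by function, with earlier results of these data known. Counts and shares of the lists are therefore a description. In the list of hemidesmosome and other laminin receptor genes, 9 genes were tested, 0 passed the adjusted threshold, 6 were separated toward triple-mutant tumors and 1 toward double-mutant tumors (66.7% and 11.1%, beside 21.3% and 22.9% of all genes), and the median log2 difference was 0.46. Col17a1, the transmembrane collagen of hemidesmosomes, was at 38.8 and 15.9 FPKM against 0.182 and 0.0986 FPKM (log2 difference 4.51, SE 0.51). Col17a1 passed the filter only through the triple-mutant tumors and so had to be separated, and 5 of the 6 remain without it. Col7a1, the collagen of anchoring fibrils, was at 22.6 and 21.2 against 3.39 and 0.909 FPKM (log2 difference 2.98, SE 0.50). Bcam, a receptor for the Lama5 chain, was at 84.2 and 60.5 against 14.8 and 11.5 FPKM (log2 difference 2.37, SE 0.32, adjusted p = 0.19 in limma). Dst, which encodes a hemidesmosomal plaque protein and other isoforms, had the opposite direction, at 4.30 and 7.41 against 10.1 and 14.8 FPKM. Plec and Cd151, further hemidesmosome components, were higher in triple-mutant tumors by 0.66 and 0.46 log2 units.

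Of the basement membrane list 19 genes were tested. None passed the adjusted threshold, 4 were separated toward triple-mutant tumors and 3 toward double-mutant tumors (21.1% and 15.8%, beside 21.3% and 22.9% of all genes), and the median log2 difference was 0.22. Of these, 1 in each direction (Ntn4 and Fras1) passed the filter only through the genotype in which it is high. Npnt (nephronectin), a ligand of the Itga8 integrin, was at 5.43 and 2.92 against 16.1 and 51.4 FPKM, lower in triple-mutant tumors as Itga8 was (log2 difference -2.57, SE 0.65, adjusted p = 0.42 in limma). Frem2, a basement membrane protein of developing epithelia, was at 1.604 and 4.68 against 0.0778 and 1.20 FPKM (log2 difference 1.32, SE 0.58). Ntn4, which binds laminin gamma chains, was at 10.2 and 2.92 against 0.950 and 0.776 FPKM (log2 difference 1.83, SE 0.58, a description). Hspg2 (perlecan), the heparan sulfate proteoglycan of basement membranes, was at 21.1 and 43.5 against 18.1 and 6.50 FPKM (log2 difference 1.39, SE 0.62). The type IV collagen genes Col4a1 and Col4a2 were at 446 and 370 FPKM in tumor 26044 and between 29.8 and 115 FPKM in the other tumors.

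**Figure D5:**
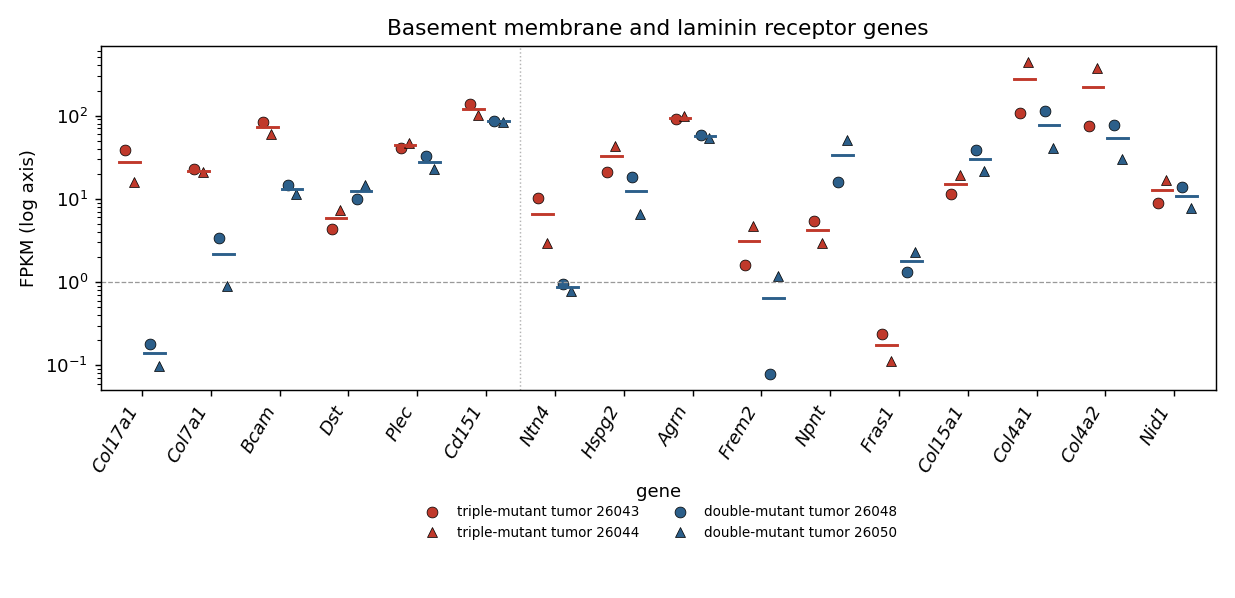
FPKM on a log axis of 16 hemidesmosome, laminin receptor and basement membrane genes in each tumor, triple-mutant in red and double-mutant in blue, with short lines at the mean of each genotype; the dashed line marks 1 FPKM and the dotted line parts laminin receptors from basement membrane genes. Col17a1, Col7a1, Bcam and Ntn4 are higher in both triple-mutant tumors, Npnt is higher in both double-mutant tumors, and Col4a1 and Col4a2 peak in tumor 26044.

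The cytoplasmic adaptors couple integrins to actin. Of 33 adaptor genes tested, 0 passed the adjusted threshold, 6 were separated toward each genotype (18.2%, beside 21.3% and 22.9% of all genes), and the median log2 difference was -0.04. The largest difference was that of Fblim1 (migfilin), at 12.8 and 30.01 against 55.4 and 85.7 FPKM (log2 difference -1.76, SE 0.51, adjusted p = 0.47 in limma). The tyrosine kinase gene Src was at 61.7 and 101 against 36.1 and 38.0 FPKM. Ptk2, which encodes focal adhesion kinase, was at 18.1 and 14.2 against 29.1 and 23.3 FPKM. Pxn (paxillin) was at 71.7 and 51.6 against 28.5 and 35.9 FPKM (log2 difference 0.91, SE 0.31). The talin genes Tln1 and Tln2 and the kindlin genes Fermt1 and Fermt2 overlapped between genotypes, while Fermt3, the kindlin of blood cells, was at 5.66 and 3.51 against 7.57 and 6.66 FPKM.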

How the data were processed

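PolyA RNA of 4 tumors was sequenced as 50-bp single-end reads from dUTP libraries. Alignment by the authors used Tophat (v2.0.10, running bowtie v0.12.9), and the deposited FPKM of each gene and the bounds of its interval come from Cufflinks v2.1.1. The build is mm10 per the labels, and starts have 1 added. All 32 members overlapped their gene in GENCODE M21. Whether strand was used in the estimation is not given in the sources used here. The read counts the study tested with DESeq2 were not used here.

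Tumors were grouped by the genotype in their labels. Genes that reached 1 FPKM in 2 or more tumors entered limma (version 3.58.1 under R 4.3.3, eBayes with a trend) as log2(FPKM + 1), with Benjamini-Hochberg adjustment over 12752 genes and a threshold of 0.05. Python 3.11.15, pandas 2.3.3 and matplotlib 3.10.9 served for joining and plotting. The fit was tested on simulated data over 12752 genes for this comparison. There it found 100% of genes set to differ by 4 log2 units and 21% of those set to differ by 1, and made 0 false calls. In the tumor data the basal markers Krt5, Krt17, Krt14 and Trp63 differed by 6.68, 5.72, 5.04 and 4.30 log2 units. Their adjusted p values in limma were 0.18, 0.14, 0.45 and 0.14, above the threshold. The simulated rate of 100% thus did not hold for these markers. Whether the simulated rates hold for other genes of the tumor data was not tested. Members of at least 1 FPKM in some tumor are named. From other lists at most 4 genes were to be named, those with the largest difference without overlap, and the targeted genes and markers. Plec, Cd151, Fn1, Ctgf, Col4a1, Col4a2, Tln1, Tln2, Fras1, Fermt1, Fermt2 and Fermt3 fall outside this rule and were chosen after their values were seen, and so were the chain pairs for ratios and the further genes in the plot of partners. Members and lists were chosen with earlier results of these data known. The values of 1 member are not reported here; counts over members include it.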

Additional observations from a re-analysis of the deposited data

How the results depend on the processing

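Under 11 alternatives (the interval midpoint, TPM, quantile normalization, no trend, a pseudocount of 0.1, a filter of 5 FPKM or none, and each tumor left out), 0 members passed the adjusted threshold, and the lowest adjusted p of a member was 0.15 (Lama1 as TPM). All 14 members without overlap kept their direction in every alternative in which they were tested, which the filter fixes for Lama1 and Lama3. For the others it is also fixed in most alternatives. Without overlap, only the interval midpoint, TPM and quantile normalization could have turned a direction. Leaving out a tumor or changing the pseudocount, trend or filter could not. Over all genes, limma called 6 genes with quantile normalization, 5 without the trend and 1 with the interval midpoint, against 0 otherwise. Direction turned for 7 members, all overlapping. The log2 difference of Itga1 was 0.081 with a pseudocount of 0.1, 0.15 with the interval midpoint, 0.26 without tumor 26043 and 0.59 without tumor 26048. With each tumor left out it ran from -0.60 to 0.59 for Itga1, from -0.40 (without 26044) to 1.16 for Lama4, from -1.31 to 0.42 (without 26044) for Itgb8, from -1.02 to 0.61 (without 26043) for Lamb1, from -1.37 (without 26043) to 2.22 for Lamb3, from -0.17 (without 26050) to 1.62 for Itga7 and from -0.14 (without 26050) to 0.58 for Itgb6. With 1 tumor left out, the count at an unadjusted p under 0.05 ran from 474 (without 26050) to 2064 (without 26043) over all genes, with 713 without 26048, and from 2 (without 26050) to 9 over members. Members separated toward triple-mutant tumors numbered 7 to 11, the most without 26048 (36.6% of all genes there), and toward double-mutant tumors 7 to 10, since fewer tumors overlap less often. With a tumor left out the lone tumor of a genotype is assumed to vary like the others. The filter then left 22 to 26 members.

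With the interval midpoint the mean share of Lama5 in triple-mutant tumors was 23.98%, that of Lamb2 29.7%, and that of Lamb3 in double-mutant tumors 15.4%. The ratio of FPKM to midpoint differed for a member between tumors by at most 1.31 times (Itgav). The study describes the females of both genotypes as littermates, but the litter of each tumor is not given. No paired analysis was therefore possible. Depth is unknown and limits genes under 1 FPKM most.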

Other observations

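Ligands of integrins outside the laminins were also measured. Of 13 ligand genes tested, 0 passed the adjusted threshold in limma, 5 were separated toward double-mutant tumors and 2 toward triple-mutant tumors (all genes: 22.9% and 21.3%), and the median log2 difference was -0.99. Spp1 (osteopontin), a ligand of Itgav integrins, was at 199 and 16.7 FPKM in triple-mutant and at 307 and 331 FPKM in double-mutant tumors. Tnc (tenascin-C), a ligand of the Itga9 integrin, was at 31.3 and 3.94 against 114 and 33.4 FPKM. Thbs1 (thrombospondin) was at 24.8 and 10.8 against 146 and 49.3 FPKM, a log2 difference of -2.30 (SE 0.68, adjusted p = 0.47 in limma). Ltbp2, a matrix protein of the latent TGF-beta binding family, was at 7.16 and 0.851 against 25.1 and 16.1 FPKM. In all 4 of these genes tumor 26044 held the lowest value. Fn1 (fibronectin), the ligand of the Itga5 integrin, was at 22.5 and 109 against 206 and 67.4 FPKM and overlapped between genotypes. Ctgf, a matricellular ligand, had the opposite direction, at 109 and 194 against 64.2 and 36.2 FPKM.

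Summed over each class, integrin beta FPKM was 336 in tumor 26043, 163 in tumor 26044, and 253 and 183 in double-mutant tumors 26048 and 26050, and integrin alpha FPKM was 104, 163, 154 and 108 in the same order.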
